A study of Mus musculus with 2 samples.

Results

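DNase I hypersensitive sites (DHS), stretches of chromatin that are open to cutting by the enzyme DNase I, were examined at 9 genes that encode Krueppel-like factors linked to the resting state of lymphocytes: Klf2, Klf3, Klf4, Klf6, Klf7, Klf9, Klf10, Klf11 and Klf13. The genes were chosen by name, with earlier results of these data known, and each lies on a chromosome of its own. A DHS was assigned to a gene when it overlapped the gene body or the 50 kb on either side by at least 1 bp, and 85 of the 47542 DHS in the list (0.179%) met this rule. The B cells came from spleens of C57/Bl6 mice of 8 weeks, of the genotype Trp53+/+ and with the treatment given as mock, and were enriched with magnetic beads against B220, a surface marker of B cells. The sources used here do not give the number of mice behind the library. The data are the peak list of 1 DNaseI library, called by the authors, and the sequencing depth is unknown. A second library, the input, was not analysed here. There are no replicates, so every comparison below is a description of this library without a test. Intervals at the 95% level cover counting error only, and those for shares of DHS treat neighbouring DHS of a locus as independent.

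Krueppel-like factors are transcription factors whose zinc fingers bind CACCC boxes and GC boxes, the latter shared with the Sp family. Klf2 keeps naive lymphocytes out of the cell cycle and controls their traffic between blood and lymphoid organs, and Klf4 has a part in the control of B cell proliferation. Klf9, Klf10, Klf11 and Klf13 can repress transcription through the Sin3a corepressor, and Klf3 does so through CtBP proteins.

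The labelled cell type was checked at promoters of marker genes. A promoter here is the region from 5 kb before to 2 kb after an annotated transcription start site (TSS), and a gene counted as accessible when a DHS touched it. Of all protein-coding genes, 57.0% had one. All 12 B cell markers had one (exact interval 73.5 to 100%), with scores of 294.3 at Cd37 and, at the lower end, 72.14 at Fcer2a and 83.97 at Cd22, on the scale of the authors' peak score described further on. Of 10 T cell markers, 2 had one (2.52 to 55.6%), Cd5 with 97.67 and Lat with 24.5. None was called at Cd3e, Cd3d or Cd3g, which define T cells. Of 8 myeloid markers, 4 had one (15.7 to 84.3%), a share near that of all genes, with scores of 51.05 at Cd14, 42.54 at Elane, 18.16 at Itgam and 12.31 at Csf3r, and Lyz2, Csf1r, Mpo and S100a8 had none. Of 4 NK cell markers, Klrb1c had one with a score of 25.96 (0.631 to 80.6%), and Ncr1, Nkg7 and Gzma had none. The part that other cells may have in the DHS of the Klf genes was not tested.

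The 120 bases before the outermost TSS are shown for 6 of the genes, because these promoters differ in whether a DHS was called over the start and in whether they carry a GC box. Each runs 5′ to 3′ on the strand of the gene, was read from the mouse assembly NCBI build 37 (mm9), and has GC boxes (GGGCGGG, or CCCGCCC on the other strand) in capitals.
Klf2 promoter: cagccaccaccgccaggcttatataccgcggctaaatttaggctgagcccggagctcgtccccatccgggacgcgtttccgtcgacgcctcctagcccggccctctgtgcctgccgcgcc
Klf3 promoter: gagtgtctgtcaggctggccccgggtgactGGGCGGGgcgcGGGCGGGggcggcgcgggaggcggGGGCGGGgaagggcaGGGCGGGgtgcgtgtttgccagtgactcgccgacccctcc
Klf4 promoter: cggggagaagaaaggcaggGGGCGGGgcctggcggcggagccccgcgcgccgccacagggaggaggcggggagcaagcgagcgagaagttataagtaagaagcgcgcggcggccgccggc
Klf7 promoter: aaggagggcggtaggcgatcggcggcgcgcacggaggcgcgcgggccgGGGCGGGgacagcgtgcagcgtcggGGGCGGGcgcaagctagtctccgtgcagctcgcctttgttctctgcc
Klf9 promoter: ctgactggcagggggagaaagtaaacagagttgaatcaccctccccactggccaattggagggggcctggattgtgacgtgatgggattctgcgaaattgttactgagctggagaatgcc
Klf11 promoter: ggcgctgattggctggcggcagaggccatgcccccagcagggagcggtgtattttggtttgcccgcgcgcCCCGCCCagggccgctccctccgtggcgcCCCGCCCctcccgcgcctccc
These stretches lie at chr8:74842812-74842931 (plus strand), chr5:65194508-65194627 (plus), chr4:55545348-55545467 (minus), chr1:64168857-64168976 (minus), chr19:23215596-23215715 (plus) and chr12:25336116-25336235 (plus). The stretches of Klf2, Klf7, Klf9 and Klf11 lay in full within a DHS, whereas 0 of the 120 bases of Klf3 and of Klf4 did so. Klf3 held 4 GC boxes, Klf7 and Klf11 held 2 each, Klf4 held 1, and Klf2 and Klf9 held none.

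Over all members, 6 of 9 held a GC box in these 120 bases: Klf10 with 2 and Klf13 with 1 were the others, and Klf6 had none. The same word occurred in 23.7% of the 22350 protein-coding genes and in 40.2% of those with a CpG-rich promoter, a class to which all 9 members belong. A promoter was CpG-rich when G and C made up 55% or more of the 1000 bp around a TSS and CpG dinucleotides reached 0.6 of the number that this composition predicts. The CACCC box (CCNCACCC on either strand) was in 0 of 9 members, against 9.40% of all protein-coding genes and 11.2% of the CpG-rich ones. The Klf9 stretch, printed in lower case throughout, also held an AP-1 word (TGANTCA) and a FOXO word (GTAAACA). These words were in 2.85% and 1.17% of all genes. The Klf2 stretch held a CTCF word (CNAGGNGGC), found in 4.66% of genes. A word is a match of letters and does not show that a factor binds.

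All 9 members had at least 1 promoter DHS (exact interval 66.4 to 100%), against the 57.0% of all protein-coding genes, and 85.1% of those with a CpG-rich promoter. The lower bound lies above the first share and below the second. At least 2 promoter DHS were found at 8 of 9 members (88.9%, exact interval 51.8 to 99.7%), against 29.6% of all genes and 55.8% of the genes with a CpG-rich promoter and a promoter DHS, a share within the interval. The exception was Klf11 with 1. The outermost TSS lay inside a DHS at 7 of 9 members (77.8%, 40.0 to 97.2%), against 40.6% of all genes and 76.2% of those CpG-rich genes, both within the interval. The exceptions were Klf3 and Klf4.

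The strength of a DHS was described by the authors' score, a value that the peak caller gave each peak and whose scale is not stated. Scores ran from 5.05 to 619.44 over the list with a median of 32.65. The highest promoter score of the members ran from 119.99 to 477.82 with a median of 232.55, and the median over all genes with a promoter DHS was 101.22 (113.77 for CpG-rich genes). All 9 members lay above the gene median, and 6 of them lay above the upper quartile of 152.37. The plot of the highest promoter scores places the members on the distribution over all 12747 genes with a promoter DHS, and shows 3 sets: Klf11 with Klf7 at the far right, Klf6, Klf2 and Klf13 in the upper tail, and the other 4 nearer the body of the distribution.

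**Figure D1:**
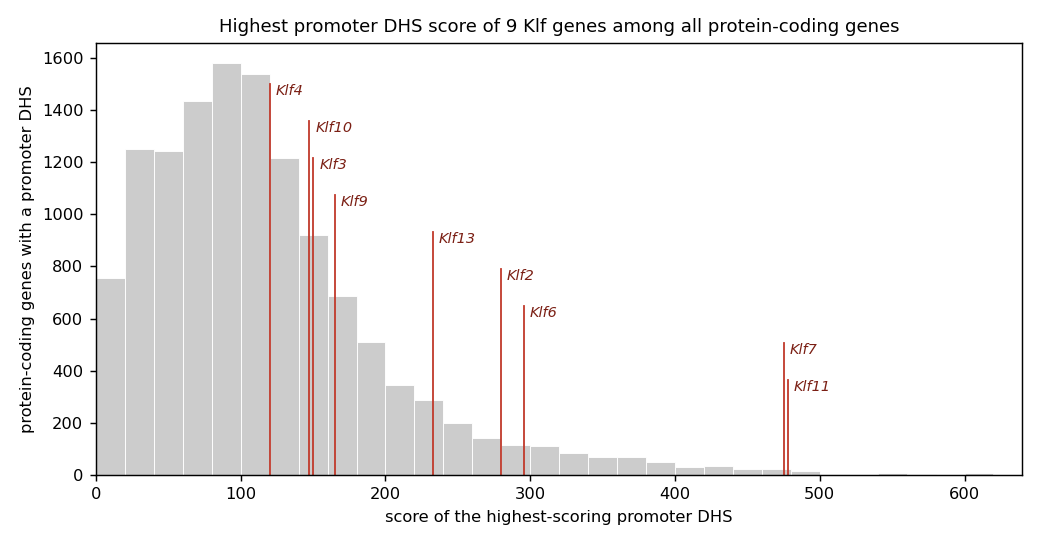
Histogram of the score of the highest-scoring promoter DHS (x axis, authors' score) over all protein-coding genes with a promoter DHS (y axis, number of genes), with a red line for each Klf gene whose height only separates the labels. Klf4 had the lowest score of the 9 at 119.99, and Klf7 and Klf11 had the highest at 475.31 and 477.82.

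Klf11, a factor induced by TGF-beta, had the highest score of the members at 477.82, at the 99.7 percentile of genes with a promoter DHS. Its single promoter DHS, at chr12:25335303-25337584, was 2282 bp wide and covered all 3 annotated TSSs of the gene. Klf7, a widely expressed factor known best from neurons, reached 475.31 (99.7 percentile) in a DHS of 1056 bp at chr1:64168300-64169355 over its outermost TSS. The other 4 TSSs of Klf7 lay in the neighbouring DHS with a score of 89.28. The strongest DHS of Klf7 was thus at the outermost start, with the weaker one over the inner starts.

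Klf6, a widely expressed factor known as a growth suppressor, had promoter DHS with scores of 295.47 and 236.13 on either side of a gap of 194 bp. The higher one, at chr13:5859506-5860508, ended before the TSS, and the lower one covered the TSS and reached into intron 1. Klf2 had its highest promoter score, 279.86 (95.0 percentile), in a DHS of 1397 bp at chr8:74842317-74843713, centred 83 bp after the TSS in exon 1. A weaker DHS of 862 bp and score 58.4 lay before it, and one of 4040 bp and score 72.23 lay after it and ran past the 3′ end of the gene. Accessible DNA thus covered most of the Klf2 gene, whose body is 2624 bp.

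Klf13, which binds GC-rich elements and is known in lymphocytes as a regulator of the chemokine gene Ccl5, had 6 promoter DHS, the most of the members. The highest score was 232.55 (91.5 percentile) at chr7:71084037-71085249, before the outermost TSS, and the DHS over that TSS scored 176.08 over 3003 bp. The inner TSS of Klf13 was not in a DHS, and the 3 DHS of intron 1 that touched its promoter window scored 14.17, 31.7 and 17.73. The sixth, before the gene, scored 14.89. The promoter DHS of Klf13 thus fell into a strong pair at the outermost start and 4 weak ones.

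Klf9, whose expression is known to be higher in naive than in memory B cells, had a DHS of 2341 bp with a score of 165.0 (79.5 percentile) over its TSS, at chr19:23214438-23216778. A second promoter DHS, of 2599 bp and score 103.27, was shared with the promoter of 2410080I02Rik. Klf10, like Klf11 induced by TGF-beta, had its highest score, 147.43 (73.3 percentile), in a DHS of 3290 bp at chr15:38229168-38232457, the widest of the highest-scoring promoter DHS. It covered all 4 TSSs of Klf10, and the other promoter DHS scored 63.46 and 34.93.

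Klf3 and Klf4 had the highest-scoring promoter DHS before the outermost TSS rather than over it. For Klf3, which with Klf2 is known for effects on marginal zone B cells, it lay at chr5:65193545-65194377 with a score of 150.29 (74.4 percentile). A DHS of score 42.73 began just after the TSS, and one of score 92.36 covered an inner TSS in intron 1, so that 2 of 3 TSSs of Klf3 were in a DHS. For Klf4 it lay at chr4:55545553-55546711 with a score of 119.99 (61.2 percentile), and the second promoter DHS, of score 77.09, covered 1 of its 4 TSSs.

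**Figure D2:**
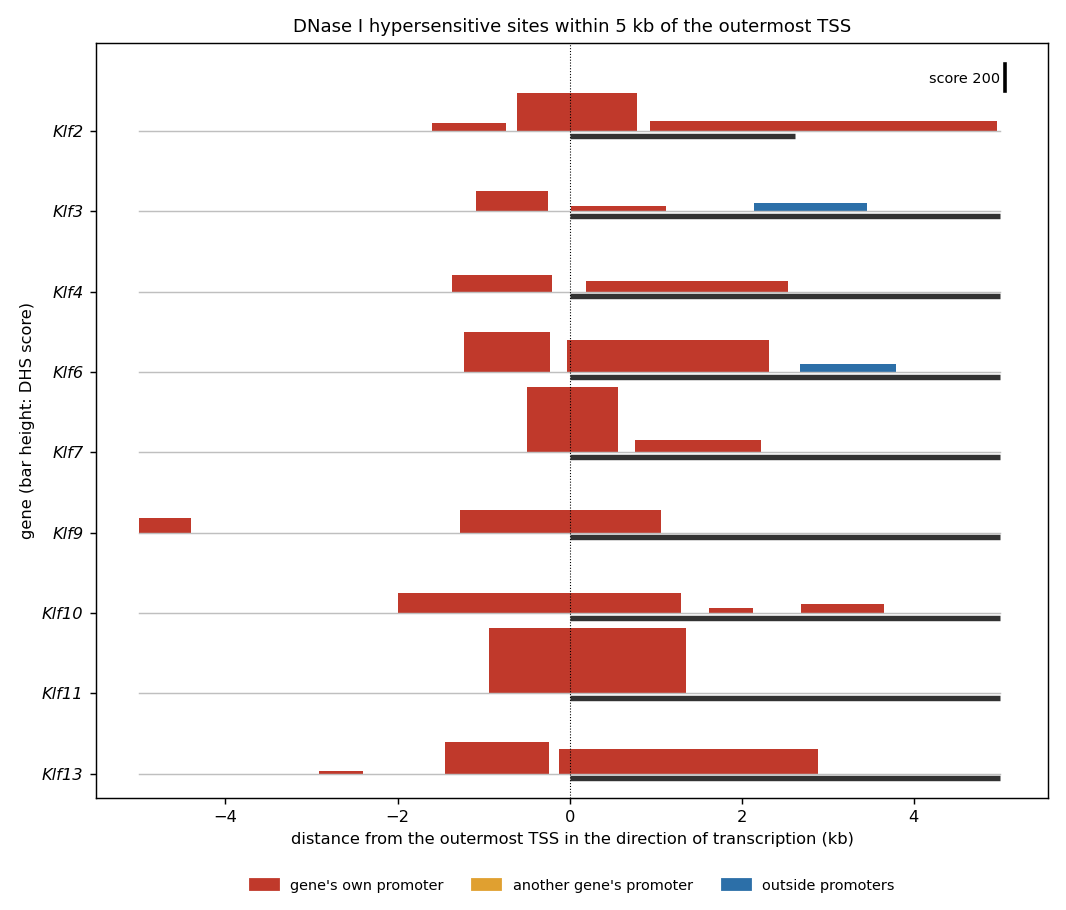
DHS within 5 kb of the outermost TSS of each Klf gene (x axis, kb in the direction of transcription; y axis, genes), drawn to scale as boxes whose height is the authors' score, with the gene as a dark bar. Boxes leave a narrow gap at 7 genes, and the dotted line of the TSS falls in that gap at Klf3 and Klf4.

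The map around the TSSs shows that the promoter DHS of most members came in neighbouring pairs. At 7 of 9 members, 2 promoter DHS were less than 500 bp apart (77.8%, exact interval 40.0 to 97.2%), against 19.9% of all protein-coding genes and 38.8% of the CpG-rich genes with a promoter DHS. This count was chosen after the positions of the members' DHS had been seen. Klf9 and Klf11 had no such pair. The 8 gaps, of which Klf2 had 2, were 114 to 391 bp long. The outermost TSS lay in such a gap at 2 of 9 members (22.2%, 2.81 to 60.0%), against 4.62% of all genes and 10.1% of those CpG-rich genes, and the interval includes both shares.

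The gap of Klf3 ran from 250 bp before to 10 bp after the TSS, and that of Klf4 from 205 bp before to 185 bp after it. The GC content of a gap was above that of both neighbouring DHS in 7 of the 8 cases. The same held for 59.2% of 4858 such gaps at protein-coding genes, for 62.6% of those at CpG-rich genes and for 82.2% of those over an outermost TSS, so that it is usual at promoters. The bases in the Klf3 gap were 80.1% G or C, against 61.9% and 70.4% in the DHS on its sides. The Klf4 gap held 76.0%, against 60.3% and 61.6%. The 3′ gap of Klf2 had 81.1%, that of Klf10 77.2%, and those of Klf6 and Klf7 65.5% and 63.1%. The exception was Klf13, whose gap had 61.4%, against 65.5% and 60.6% in the DHS on its sides. The GC content of the remaining Klf2 gap was 67.7%. Whether base composition has a part in where peaks end was not tested, and a gap means only that no peak was called there.

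The number of DHS in the whole window, promoters included, differed widely among members. Klf13 had 21, Klf2 had 20, Klf3 had 12, Klf11 had 9, Klf6 had 6, Klf7 and Klf10 had 5 each, Klf4 had 4 and Klf9 had 3. The median was 6, against 5 over all protein-coding genes with quartiles of 1 and 9. Only Klf13 (98.5 percentile), Klf2 (98.0 percentile) and Klf3 (86.5 percentile) lay above the upper quartile. Klf2 and Klf13 together held 41 of the 85 DHS (48.2%).

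Windows differ in length with the gene body, so the DHS were also counted per 100 kb of window. The median of the members was then 5.51, against 3.38 over genes, with Klf2 at 19.5, Klf13 at 13.8 and Klf9 lowest at 2.39. By the share of the window that DHS covered, Klf2 stood at 26.5% (99.8 percentile), Klf13 at 12.3%, Klf3 at 10.5% and Klf7 lowest at 2.56%, where the gene median was 3.06%. The stacked bars of DHS by class show that the long bars of Klf2, Klf3 and Klf13 consist mainly of DHS outside promoters.

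**Figure D3:**
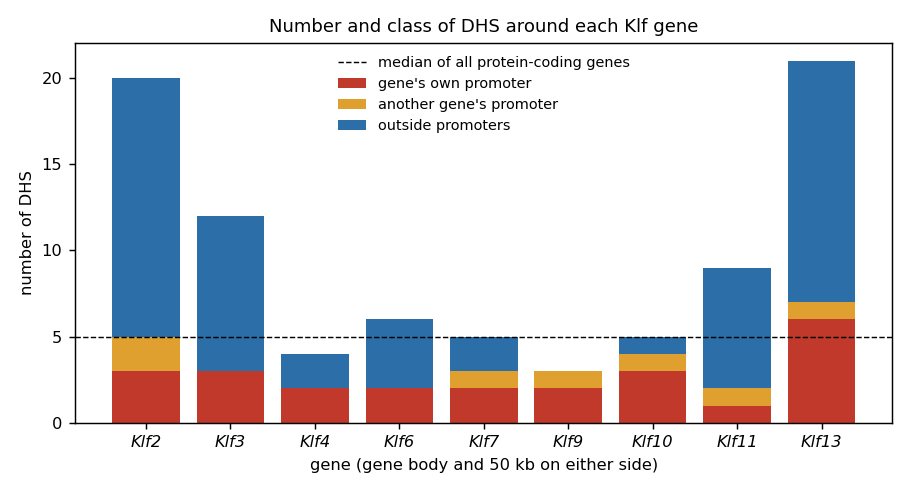
Number of DHS (y axis) in the gene body and 50 kb on either side of each Klf gene (x axis), stacked by class, with a dashed line at the median of 5 over all protein-coding genes. Klf2 with 20 and Klf13 with 21 stand far above the line, and Klf4 with 4 and Klf9 with 3 below it.

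Of the 85 DHS, 24 (28.2%, Wilson interval 19.8 to 38.6%) lay at a promoter of the member itself, 7 (8.24%, 4.05 to 16.0%) at the promoter of another gene and 54 (63.5%, 52.9 to 73.0%) outside every promoter. Over the windows of all protein-coding genes 38.1% of DHS lay outside promoters, and 52.5% of all DHS in the list did. With 10 kb on either side in place of 50 kb, there were 41 DHS, of which 36.6% lay outside promoters. At or above the median score of the list there were 48, of which 52.1% did. The shares of 38.1% and 52.5% were counted with 50 kb flanks or over the whole list, at any score. They are not matched to these settings, for which no share over all genes or all DHS is given. The promoter DHS of the members had a median score of 97.8 and a median width of 1305 bp, against 53.3 and 941 bp for all promoter DHS, and 18 of 24 lay above that median score (75%, 55.1 to 88.0%). Of these, 9 of 24 were over 2 kb wide (37.5%, 21.2 to 57.3%), against 9.48% of all promoter DHS. The DHS outside promoters had a median score of 31.4 and a median width of 816.5 bp, against 24.3 and 602 bp for all such DHS. Their scores exceeded the median of all such DHS in 28 of 54 cases (51.9%, 38.9 to 64.6%). The promoter DHS of the members were thus wider and of higher score in the median than all promoter DHS. All 9 members have a CpG-rich promoter, and these values are not given for CpG-rich promoters alone. The members' DHS outside promoters were wider than their class in the median but had scores spread about its median.

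Outside promoters, 24 DHS lay before the longest coding transcript, 11 in its introns and 19 beyond its 3′ end. For 41 of the 54 the nearest protein-coding TSS was that of the member. A score in the upper decile of all DHS outside promoters, above 72.25, was reached by 7 of 54 (13.0%, 6.42 to 24.4%). Klf2 had 4 of the 7, and Klf3, Klf4 and Klf13 had 1 each.

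**Figure D4:**
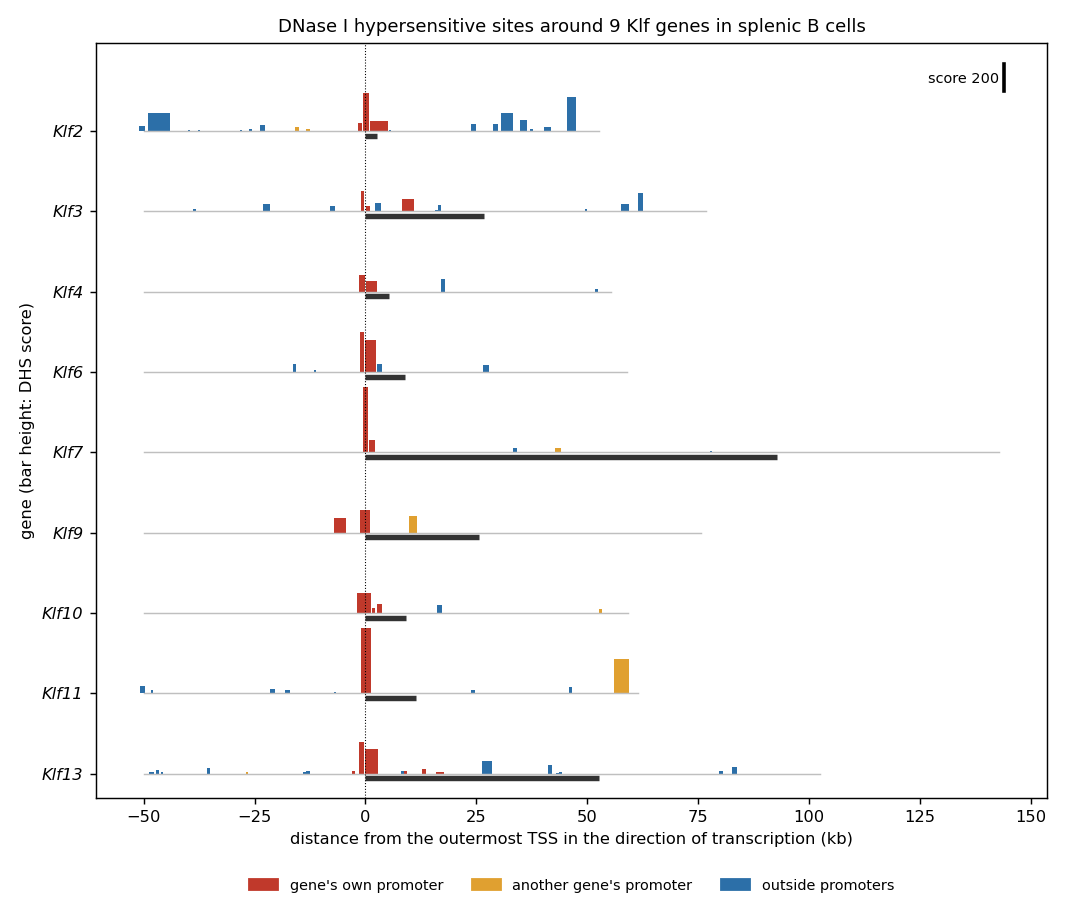
DHS in the gene body and 50 kb on either side of each Klf gene (x axis, kb from the outermost TSS in the direction of transcription; y axis, genes), as boxes whose height is the authors' score and whose colour is the class. Klf2 and Klf13 carry DHS on both sides of the gene with empty stretches between, and Klf9 has none outside promoters.

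The Klf2 locus, drawn at the top of the map of the windows, had 15 DHS outside promoters, 7 before the gene and 8 beyond it. Of those beyond it, 7 lay inside the neighbouring gene Eps15l1, which encodes an endocytic adaptor. The highest of these, and of all members, had a score of 251.18 (99.5 percentile of DHS outside promoters) at chr8:74888392-74890487, centred 46507 bp after the TSS of Klf2 and nearer to a TSS of Eps15l1. Others in Eps15l1 scored 132.72 at chr8:74873441-74876100 and 81.64 at chr8:74877855-74879343. On the other side, a DHS of 4921 bp with a score of 129.38 was centred 46553 bp before the TSS, nearer to the TSS of Ap1m1. The strongest DHS outside promoters on each side of Klf2 thus lay near the ends of its window, and which gene they belong to cannot be read from a peak list. The 2 DHS at the promoter of Gm10282 scored 27.2 and 14.66.

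Klf13 had about as many DHS as Klf2, but weaker ones. Their median score was 17.73, against 38.07 at Klf2, and 12 of 21 scored under 20. Of its 14 DHS outside promoters, 7 lay before the gene, 5 in intron 1 and 2 beyond it. The highest, 89.78 (93.5 percentile), was in intron 1 at chr7:71055238-71057610, and the lowest of all members, 7.04, was in the same intron. A promoter DHS of U3 in this window scored 11.85. The nearest protein-coding TSS was that of Klf13 for all 21.

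At Klf3, 9 DHS outside promoters were divided evenly, with 3 before the gene, 3 in introns and 3 beyond it. The highest score was 137.96 (97.5 percentile) at chr5:65256026-65257163, 61966 bp after the TSS, and the next, 60.88, was in intron 1. Klf4 had 2 such DHS, both beyond the gene. The stronger scored 89.6 (93.5 percentile) at chr4:55527305-55528379, 17505 bp after the TSS, and the other scored 18.12. Klf6 had 4, with the highest, 61.51 (86.5 percentile), in intron 1 at chr13:5863406-5864532. All DHS in the windows of Klf3, Klf4 and Klf6 were nearest to the TSS of the member.

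Klf11 had 7 DHS outside promoters, all of modest score. The highest, 55.3 (83.7 percentile), lay inside the gene Grhl1 at chr12:25285468-25286483. It was centred 50261 bp before the TSS of Klf11, at the edge of the window, and nearer to a TSS of Grhl1. The nearest protein-coding TSS was that of Klf11 for 4 of the 9 DHS in its window. A far stronger DHS in this window, of score 252 and 3443 bp, belonged to the promoter of Rrm2, the small subunit of ribonucleotide reductase. Klf10 had a single DHS outside promoters, of score 60.68 (86.2 percentile), at chr15:38213253-38214431 beyond its 3′ end, and one of score 25.19 at Gm8705. Klf7, the longest member with a gene body of 92836 bp, had 2 in its introns with scores of 31.44 (62.4 percentile) and 11.71, and one of score 34.18 at the promoter of Gm13748. Klf9 had none. Its intron 1 held a DHS of score 119.07 that counted as a promoter DHS of the microRNA gene Mir1192.

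The central 120 bases of 3 DHS outside promoters are printed because each is the highest-scoring one of its gene and holds one of the words within those 120 bases. The highest-scoring DHS outside promoters of Klf2 (a CTCF word), Klf7 (an AP-1 word) and Klf13 (a PU.1 word) held theirs in the central 300 bp but outside the central 120, and those of Klf3 and Klf11 held none. They are given on the plus strand of mm9, with the word in capitals: a CACCC box at Klf4 (CCNCACCC), an AP-1 word at Klf10 (TGANTCA) and a RUNX word at Klf6 (TGTGGTT).
Klf4 site: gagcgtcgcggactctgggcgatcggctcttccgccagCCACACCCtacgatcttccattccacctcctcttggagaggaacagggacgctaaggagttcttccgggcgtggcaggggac
Klf10 site: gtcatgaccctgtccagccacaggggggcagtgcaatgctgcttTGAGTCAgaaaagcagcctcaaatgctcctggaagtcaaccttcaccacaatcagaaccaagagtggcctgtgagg
Klf6 site: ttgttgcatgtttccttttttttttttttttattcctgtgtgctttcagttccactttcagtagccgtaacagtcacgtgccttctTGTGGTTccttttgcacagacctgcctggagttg
They lie at chr4:55527782-55527901, chr15:38213782-38213901 and chr13:5863909-5864028. Among all DHS outside promoters, 10.5% held a CACCC box in the central 300 bp, 9.34% an AP-1 word and 8.43% a RUNX word, so each word is common in this class.

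Words were counted in the central 300 bp of all 85 DHS. A CACCC box or a GC box, the words of Krueppel-like factors themselves, was in 18 of 85 (21.2%, Wilson interval 13.8 to 31.0%), against 21.4% of all DHS. At promoters it was in 9 of 31 (29.0% against 29.9%), and outside promoters in 9 of 54 (16.7% against 13.7%). In these central windows the pooled words of the family were thus about as frequent as in other DHS. Over the whole length of each DHS the share was 55.3% (44.7 to 65.4%), against 42.6% of all DHS, and the DHS of the members were the wider ones, with a median of 1016 bp against 760 bp. Outside promoters the share over the whole length was 44.4% (32.0 to 57.6%), against 28.7%, and there too the DHS of the members were wider. Both of these intervals left out the share of all DHS, whereas at promoters (74.2%, 56.8 to 86.3%, against 57.9%) the interval included it, and the part of the width in this was not tested.

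By single word, the GC box was in 6 of 54 DHS outside promoters (11.1%, 5.19 to 22.2%), against 3.90% of all such DHS. These 6 belonged to Klf2, Klf4, Klf6 and Klf13. The EBF word (CCCNNGGGA), of the B cell factor Ebf1, was in 7 of 54 (13.0%, 6.42 to 24.4%), against 5.39%, at Klf2, Klf10, Klf11 and Klf13. The PU.1 word (GAGGAAGT) was in 3 of 31 promoter DHS (9.68%, 3.35 to 24.9%), against 2.94%. These were the 3 of 42 comparisons of a word and a class of DHS in which the interval left out the share of all DHS, and no correction was made for their number. Such intervals also treat DHS of the same locus as independent. Klf2 held 15 and Klf13 held 14 of the 54 DHS outside promoters. The FOXO word was in 5 of 54 DHS outside promoters (9.26%, 4.02 to 19.9%, against 4.22%). The Ets word (CCGGAAGT), the octamer (ATTTGCAT) and the MEF2 word (TATTTTTAG) were in 0 of 85, which allows up to 4.32%, where 1.68%, 1.63% and 0.539% of all DHS held them. The E2A word (CAGCTG) was in 16.5% against 17.5%, the IRF word (GAAANNGAA) in 11.8% against 9.25%, and the CTCF word in 4.71% against 8.21%.

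Because the cells were the unstressed reference of a study of p53, the windows were also searched for the p53 response element, a pair of adjacent decamers of 20 bases in all. At most 2 mismatches were allowed, and none at the core C and G of each decamer. The windows held 13 such elements, at 8 of the 9 members (none at Klf10), where 73.9% of all protein-coding genes had one in windows drawn the same way. The median was 1 element both for the members and for all genes. None matched without a mismatch and 2 had 1 mismatch, at Klf2 and Klf6. Of the 13, 1 lay inside a DHS, in intron 1 of Klf13, and of all 25673 elements on chromosomes 1 to 19 and X 1.96% did. These 3 are shown on the plus strand of mm9, with bases off the consensus in capitals.
Klf2 element: gagcatgctcaCacaagcct
Klf6 element: agacaagtAcaagcttgcct
Klf13 element: aggcaagttAgaacCagctt
They lie at chr8:74804343-74804362, chr13:5887150-5887169 and chr7:71070583-71070602. The DHS over the Klf13 element scored 31.7. The Klf6 element lay outside the DHS that begins at position 5887325 of chromosome 13. With the DHS at the edge of the Klf2 window, whose element is beyond the window, 2 of 85 DHS held an element (2.35%, 0.648 to 8.18%), against 1.02% of all DHS, a share within the interval. Binding by p53 is not measured by these data.

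Related genes were counted on the same scale, from lists drawn up from general knowledge with earlier results of these data known. The dots by gene list show each gene's highest promoter score beside those of the 9 members. Of 17 other genes of the Klf and Sp families, 11 had a promoter DHS (64.7%, exact interval 38.3 to 85.8%), a share whose interval includes the 57.0% of all genes. At or above the median score of the list 7 of 17 had one, and the share of all genes at that threshold is not given here. With DHS of any score, 8 of the 11 with a CpG-rich promoter had a promoter DHS, against 85.1% of all such genes. The highest scores were those of Sp4 with 542.41 and Sp3 with 273.26, factors that bind GC boxes. The lowest were those of Sp8 with 15.29, a factor of the developing limb and brain, and Sp6 with 20.35, a factor of tooth and skin. The 6 without one were Klf5, Klf12, Klf14, Klf15, Klf17 and Sp7, which were named after their values had been seen, as was Klf1, the erythroid factor, with a score of 177.81.

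Of 14 other regulators of quiescence, all 14 had a promoter DHS (exact interval 76.8 to 100%), with a median highest score of 202.37. The interval lies above the 57.0% of all genes and includes the 85.1% of CpG-rich genes, to which 12 of the 14 belong. Tob1, an antiproliferative protein, had 446.84, and Rbl2, the pocket protein p130, had 385.55. Lowest were Tsc2 with 41.24 and Tsc1 with 74.08, the partners of the complex that restrains mTOR. Of 6 trafficking genes controlled by Klf2, all 6 had one (54.1 to 100%, an interval that includes the 57.0% of all genes), and their median of 80.59 was below the gene median of 101.22. Cxcr5, the receptor that guides B cells to follicles, had 126.88 and Ccr7 had 93.42, while Cxcr3 had 22.19 and the integrin subunit gene Itgb7 had 24.32. None of these 6 had a CpG-rich promoter.

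Of 11 genes for partners of the factors and for ubiquitin ligases that mark them for degradation, 10 had a promoter DHS (90.9%, 58.7 to 99.8%) with a median of 167.9. This share is near that of CpG-rich genes (85.1%), to which 10 of the 11 belong. The highest were Sin3a with 376.11 and Fbxw7, which targets Klf2 for degradation, with 251.06, and the lowest were the deacetylase gene Hdac1 with 84.87 and the ligase gene Wwp1 with 86.73. The exception was Ctbp2, which encodes a corepressor. Over the 3 lists together 30 of 31 genes had a promoter DHS (96.8%, 83.3 to 99.9%), and of the 22 with a CpG-rich promoter 21 had one, against 85.1% of all such genes.

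**Figure D5:**
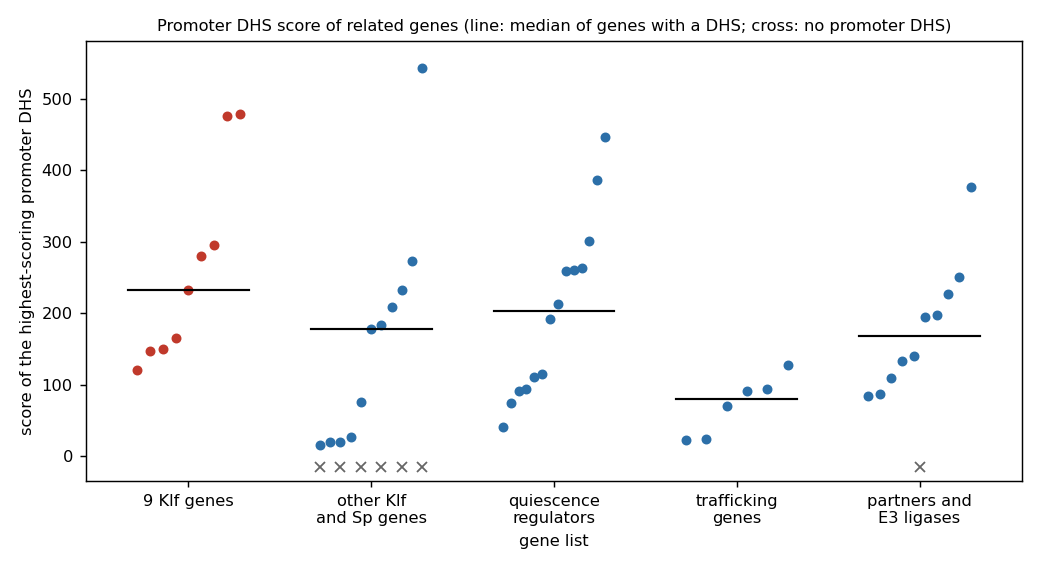
Score of the highest-scoring promoter DHS (y axis, authors' score) for each gene of 5 lists (x axis), with 1 dot per gene, a line at the median of genes with a DHS and crosses for genes without one. The medians were 232.55 for the 9 Klf genes, 177.81 for other Klf and Sp genes, 202.37 for quiescence regulators, 80.59 for trafficking genes and 167.9 for partners and ligases.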

How the data were processed

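DNase I fragments of splenic B cells were sequenced in 1 DNaseI library, beside 1 input library. The submitters' processing notes name BWA 0.6.2, SAMtools and the genome build mm9. The authors deposited 1 list of peaks of the MACS peak caller, each with a position and a score. The scale of this deposited score, the version and settings of the caller for this library and the use of the input are not given in the sources used here. The score was therefore used only within the list, in ranks, medians and a threshold. The list holds no reads, so depth is unknown, and a region without a DHS is only one where no peak was called.

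Genes, TSSs and exons were taken from GENCODE release M1 on NCBI build 37. Statistics over genes and DHS used chromosomes 1 to 19 and X (47474 DHS and 22350 protein-coding genes). The promoter window of 5 kb before to 2 kb after a TSS is the one that the study applied to p53 sites. Words were searched on both strands in the central 300 bp of each DHS and in the 120 bases before each outermost TSS. Shares of DHS have Wilson intervals and shares of genes exact binomial ones, at the 95% level. Python 3.11.15, numpy 2.4.6, pandas 2.3.3 and scipy 1.17.1 were used, and the routines were checked on simulated data. There were no replicates and no test.

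The members, lists and words were chosen with earlier results of these data known, and the count of neighbouring promoter DHS was chosen after their positions were seen. The shares of gaps by GC content, of windows with a p53 element and of CpG-rich genes with a promoter DHS were also added after the members' values were seen. The markers of erythroid cells and platelets and 1 B cell marker that the naming rule gives are not reported here. All members are named, each with its highest DHS at and outside promoters. Of each other list, the genes lacking a promoter DHS (or having one) are named where at most 5 did, besides the 2 with the highest and the 2 with the lowest score. Cd3e, Cd3d and Cd3g are named as defining markers. A neighbouring gene is named where its promoter holds a DHS of a window, and Eps15l1, Ap1m1 and Grhl1 were named after their values were seen. Alternatives were a threshold at the median score of 32.65, merging of DHS closer than 500 bp, a promoter window of 1 kb on each side, the DHS centre in place of any overlap, flanks of 10 kb and 100 kb, nearest TSS, coding transcripts only, and whole DHS in the word search.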

Additional observations from a re-analysis of the deposited data

How the results depend on the processing

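Of 47 values recomputed over 8 results, 36 stayed close to the reported value (within its interval for a share, within 1.5 times for a count, and the same for a median), and 11 did not. All 9 members had a promoter DHS, with a median highest score of 232.6, under each of the alternatives run for these results. The 85 DHS fell to 48 at or above the median score and to 41 with flanks of 10 kb. The median number of DHS per member, 6 as reported, was 4 at or above the median score, 4 after merging, 4 with flanks of 10 kb, 7 with flanks of 100 kb and 5 by nearest TSS. The share outside promoters, 63.5%, became 52.1% at or above the median score and 36.6% with flanks of 10 kb. At or above the median score, 7 of the other Klf and Sp genes had a promoter DHS in place of 11. The share of DHS with a CACCC or GC box rose from 21.2% to 55.3% when the whole DHS was searched, by construction over more bases. No paired analysis was possible because there is only 1 DNaseI library. With 1 library of unknown depth, the spread between animals is unknown, and a missing DHS cannot be told from too few reads.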
